A study of Mus musculus with 6 samples.

Results

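The 96 genes described here were the protein-coding genes with clearly higher counts after transfection of an miR-497 mimic into ADC106 cells, a mouse angiosarcoma line. They were selected on that difference alone. By role they ranged from lysosomal, metabolic and matrix proteins to adhesion, surface, signalling and RNA-binding proteins, and no single pathway held most of them. A gene was taken when its mean level in the miR-497 libraries was at least 3 CPM (a count divided by all counts of the library, times 1000000) and at least 2.5 times its mean in the NC libraries, and when every miR-497 library lay above every NC library. Of the 55401 gene identifiers in the count table, 21897 were protein-coding and 10342 of these reached 3 CPM with the miR-497 mimic. The numeric conditions were met by 99 protein-coding genes, and Cemip, Mras and Cryab were left out by name, as collagens and mitochondrially encoded genes would have been. Because the choice used the same counts, the differences between the groups are given as a description and carry no test.

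Both groups were ADC106 cells transfected with 12.5 nM of a mimic, a short RNA duplex that is loaded like a natural microRNA. One group received the NC mimic and has the genotype WT in the labels. The other received the miR-497 mimic and is labelled miR-497 overexpression. RNA was taken 3 days after transfection, enriched for poly(A) RNA and sequenced, with 3 libraries in each group. The comparison rests on 1 line, untransfected cells were not analysed here, and the labels did not say whether the libraries came from separate cultures, so spreads between libraries may be technical.

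The libraries held 25777676 to 36159499 counts. Of 20 endothelial marker genes, 19 were at 1 CPM or more in every library and Sox17 was not, while 4 epithelial markers summed to at most 1.14 CPM. The 5 macrophage markers summed to 9.62 to 10.9 CPM with NC and 15.7 to 21.4 CPM with miR-497. That difference was Cd68, a lysosomal protein, from a mean of 8.30 to 17.4 CPM, while Ptprc, Csf1r, Adgre1 and Lyz2 had means of at most 1.06 CPM. Csf1r and Lyz2 were not called higher, and Ptprc and Adgre1 were too low to be tested. The 4 neuronal markers summed to 3.04 to 4.78 and 5.29 to 7.12 CPM, with Snap25 called higher (0.558 to 1.89 CPM) and Tubb3 at 0. Smooth muscle markers summed to 337 to 363 and 399 to 432 CPM, with Acta2 and Smtn called higher, fibroblast markers to 119 to 133 and 91.9 to 119 CPM with Lum at 0, and trophoblast markers to 7.15 to 7.72 and 6.25 to 8.32 CPM with Prl3d1 at 0. No gene of these marker lists was among the 96. Mitochondrially encoded genes took 2.03% to 2.15% of counts with NC and 2.94% to 3.77% with miR-497. The part of these shifts in the levels below was not tested, and more cells with a transcript cannot be told apart from more transcript per cell.

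MicroRNAs are short RNAs that guide Argonaute proteins to messenger RNAs, mostly through pairing of the seed, bases 2 to 8 of the microRNA, with the 3′ UTR. Paired transcripts are typically destabilised or translated less, so direct targets are usually sought among transcripts that fall. miR-497 belongs to the miR-15/16/195 family, which shares its seed and is best known for restraining the cell cycle. A mimic duplex can also load its second strand. The sample titles do not give the sequence of the mimic, so whether its second strand matched the natural one is not known. Both mature strands are shown because the site counts further on were made with their seeds, which stand in capitals. They are RefSeq sequences on GRCm38.p6, at chr11:70234730-70234751 and chr11:70234770-70234790 on the plus strand.
mmu-miR-497a-5p: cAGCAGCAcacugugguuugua
mmu-miR-497a-3p: cAAACCACacugugguguuag

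**Figure D1:**
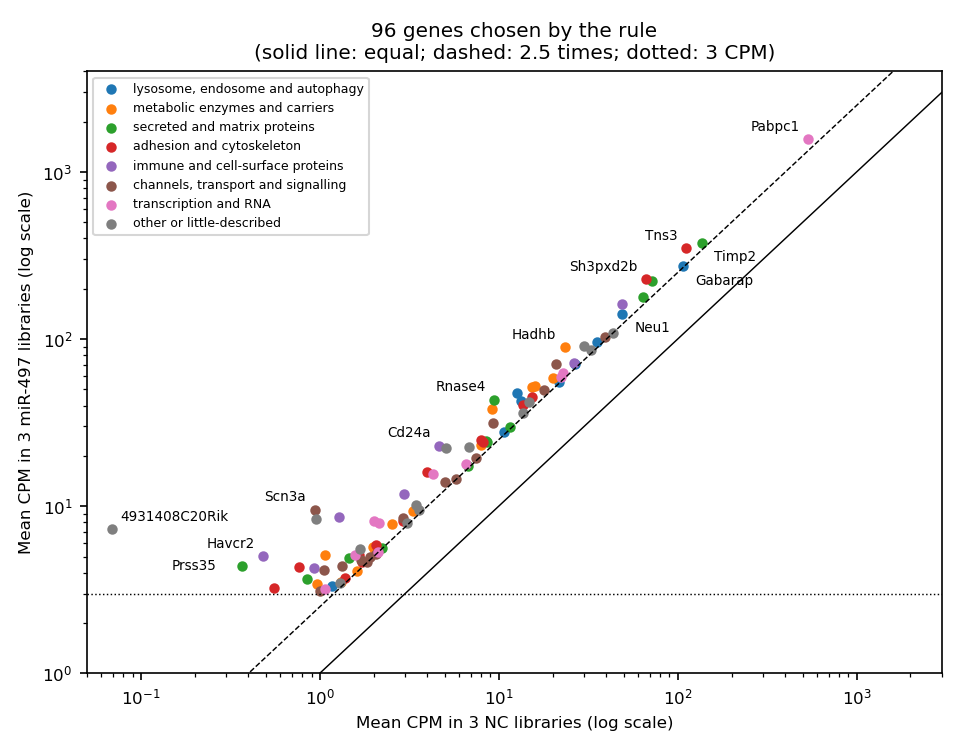
Mean CPM of the 96 genes in the 3 NC libraries (x axis, log scale) and the 3 miR-497 libraries (y axis, log scale), 1 point a gene, coloured by role. The dashed line is the 2.5-fold limit and the dotted line the 3 CPM limit, so all points lie above both by choice; 52 of them have a ratio between 2.5 and 3, and 4931408C20Rik stands apart at the left.

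Most of the 96 genes sat close to the lower limit of the choice. The ratio of mean CPM was 2.5 to 3 for 52 genes, 3 to 4 for 27, 4 to 5 for 9 and at least 5 for 8, with a median of 2.93. The 3 genes just inside the limit were Pde9a at 2.52 (1.85 to 4.65 CPM), St3gal1 at 2.52 (43.3 to 109 CPM) and Arnt2 at 2.52 (2.11 to 5.30 CPM). Those just outside were Sectm1a at 2.49 (24.0 to 59.6 CPM), Cd1d1 at 2.47 (6.60 to 16.3 CPM) and Cep170b at 2.46 (7.52 to 18.5 CPM). The limit therefore cut through a continuous range of ratios rather than a gap.

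The genes were mostly low with the NC mimic. The choice favoured such genes, since the NC mean divides the ratio and only the miR-497 mean had a floor. The median NC level of the 96 was 4.81 CPM, against 27.3 CPM over the tested protein-coding genes, and 41 of the 96 had an NC mean under 3 CPM. With miR-497, 53 reached a mean of 10 CPM, 24 reached 50 CPM and 11 reached 100 CPM. In 79 genes the lowest miR-497 library was at least 2 times the highest NC library, and in 92 at least 1.5 times. The choice required every miR-497 library above every NC library, so separation was built in. The share over all tested genes was not counted. The coefficient of variation of the 96 genes between libraries had a median of 13.8% with NC and 8.71% with miR-497. It was 6.46% and 7.38% over the tested protein-coding genes, which were not matched for level. Together the 96 genes took 1933, 1944 and 1861 CPM of the NC libraries and 5791, 5493 and 5723 CPM of the miR-497 libraries. By CPM, 59 of the genes were highest in miR-497 library 3, 25 in library 1 and 12 in library 2. With TMM scaling of the library sizes the same counts were 39, 44 and 13, so the order of libraries 1 and 3 depended on the scaling.

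All 96 genes passed the low-count filter of an edgeR quasi-likelihood fit over 14661 genes, and all 96 were called higher at an adjusted p under 0.05, where 23.8% of all tested genes were called higher and 26.0% lower. That count follows from the choice and nothing is read from it. The fitted log2 fold changes of miR-497 over NC ran from 1.34 to 6.80 with a median of 1.57, beside a median of -0.02 over all tested genes. In the role groups below, values are CPM in the order of replicates 1, 2 and 3, the ratio is that of the 2 group means, and ± gives the SD over 3 libraries.

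The first role group held 9 genes of lysosomes, endosomes and autophagy, with ratios from 2.54 to 3.76. Lysosomes are the acidic organelles in which glycans, lipids and proteins are broken down, and autophagy delivers cytoplasm to them. Neu1, at chr17:34931253-34935953, encodes the lysosomal sialidase, which removes terminal sialic acids from glycoproteins and works in a complex with cathepsin A. Neu1 measured 51.1, 49.5 and 46.8 CPM with NC and 136, 134 and 156 CPM with miR-497. Its NC values lay within a few CPM of each other and miR-497 library 3 stood highest, a 2.89-fold ratio of means. Smpdl3a, a phosphodiesterase related to acid sphingomyelinase, measured 15.1, 12.3 and 10.4 CPM with NC and 46.5, 43.6 and 52.1 CPM with miR-497, the largest ratio of the group at 3.76-fold. Gabarap, an ATG8-family protein conjugated to autophagosome membranes, measured 112, 106 and 102 CPM with NC and 287, 264 and 274 CPM with miR-497. Gabarap was also the most abundant transcript of the group per length, at 149 CPM per kilobase of exon with miR-497 and 57.98 with NC.

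Membrane proteins of these organelles were also among the 9. Gpr137b, a lysosomal membrane protein, measured 15.6, 11.7 and 12.9 CPM with NC and 43.95, 38.5 and 45.1 CPM with miR-497. Slc29a3, a nucleoside transporter of late endosomes and lysosomes, measured 21.01, 22.1 and 21.8 CPM with NC and 55.8, 55.5 and 53.9 CPM with miR-497, with library values nearly equal within each group. Gpnmb, a transmembrane glycoprotein of melanosomes and lysosomes, went from a mean of 35.2 to 95.6 CPM, and Washc1, the actin-nucleating subunit of the endosomal WASH complex, from a mean of 26.8 to 70.9 CPM. Rab27b, a small GTPase that docks secretory organelles, measured 11.6, 10.3 and 10.1 CPM with NC and 28.9, 26.99 and 27.3 CPM with miR-497. Ctsk, a cysteine protease that degrades matrix, was low throughout, at 1.597, 1.41 and 0.526 CPM with NC and 3.26, 3.33 and 3.41 CPM with miR-497. Its NC values varied more than its miR-497 values, and its 2.83-fold ratio rests on few counts.

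Genes of the same organelles that were not selected can be read from a list of lysosomal and autophagy genes compiled by symbol, of which 87 were tested. Among them, 57 were called higher (65.5%) and 14 lower (16.1%), with a median log2 fold change of 0.31, beside 23.8%, 26.0% and -0.02 over all tested genes. Without Neu1, Ctsk and Gabarap, 54 of 84 were called higher and 14 lower, with a median of 0.30. The 57 stayed between 51 and 57 under the other normalizations, filters and tests and with each library left out, and the 14 between 12 and 15. Atp6v0d1, a subunit of the proton pump that acidifies lysosomes, was called higher with a log2 fold change of 1.11 ± 0.06 (SE; adjusted p = 1.5e-10, edgeR), from 87.5 to 187 CPM. Npc2, which hands cholesterol out of the lysosome, was called higher by 1.06 ± 0.06 (adjusted p = 2.6e-10, edgeR). Atg9b, a lipid scramblase of early autophagosomes, was called lower at -1.56 ± 0.12 (adjusted p = 2.4e-08, edgeR). Atp6v0e, another pump subunit, was called lower at -0.72 ± 0.07 (adjusted p = 2.1e-07, edgeR). Cd68, the macrophage marker called higher, is itself in this list, and the other 4 macrophage markers were near 0 or not called higher.

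**Figure D2:**
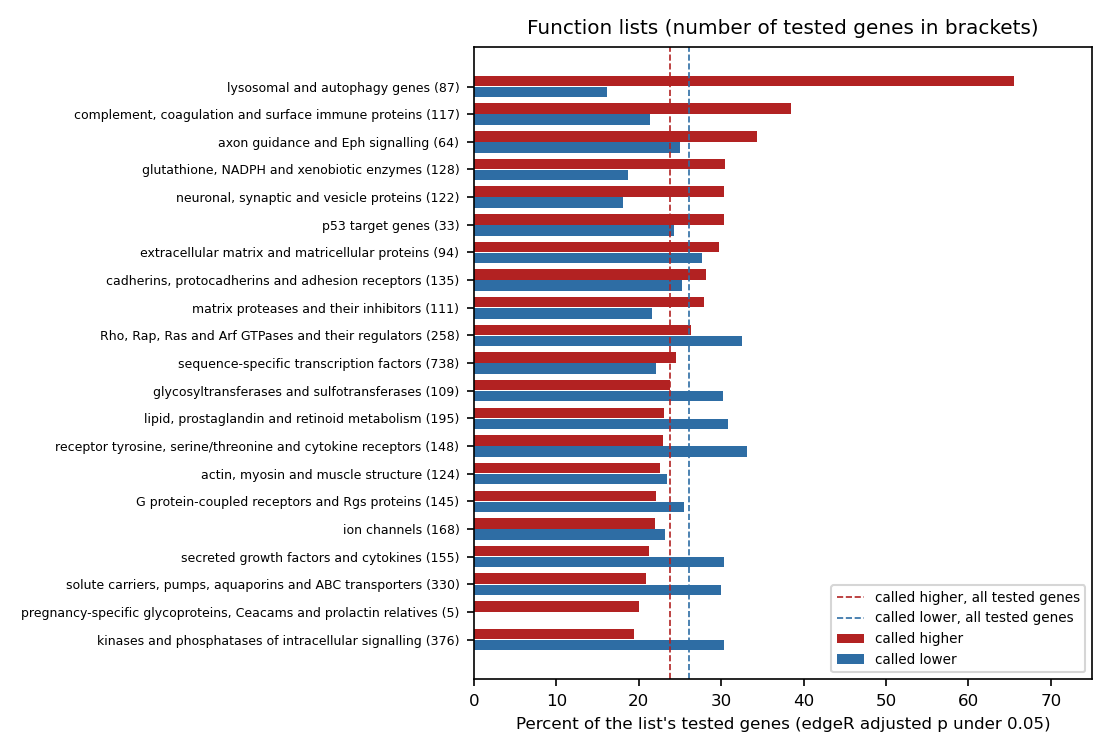
Share of each function list's tested genes called higher (red) or lower (blue) with miR-497 by edgeR at an adjusted p under 0.05 (x axis, percent), with the number of tested genes in brackets and dashed lines at the shares over all tested genes, 23.8% and 26.0%. The list of lysosomal and autophagy genes has the longest red bar, at 65.5%, followed by complement, coagulation and surface immune proteins at 38.5%; the lists include the selected genes.

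The 14 metabolic enzymes and carriers had ratios from 2.54 to 4.77. A pair of them act in mitochondrial fatty acid oxidation, the stepwise removal of acetyl units from acyl chains. Hadhb, at chr5:30155248-30184593, encodes the β subunit of the mitochondrial trifunctional protein, and went from 23.3 ± 6.87 to 89.1 ± 4.94 CPM. Its first NC library, at 31.1 CPM, stood above the other two at 20.9 and 17.98 CPM, and all miR-497 libraries lay between 85.5 and 94.7 CPM. Hadh, the short- and medium-chain 3-hydroxyacyl-CoA dehydrogenase, went from 15.4 ± 2.22 to 51.9 ± 2.49 CPM. Me3, the mitochondrial NADP-dependent malic enzyme, was low and went from a mean of 1.62 to 4.101 CPM, and Sfxn3, a mitochondrial serine carrier, went from a mean of 20.03 to 58.6 CPM.

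Redox and detoxifying enzymes formed a second cluster of names. Fmo1, a flavin-containing monooxygenase that oxidises xenobiotics, had the largest ratio of the group at 4.77-fold, with 1.01, 1.41 and 0.771 CPM with NC and 5.28, 4.54 and 5.41 CPM with miR-497. Blvrb, which reduces biliverdin and flavins, measured 8.94, 8.07 and 10.6 CPM with NC and 36.04, 38.2 and 40.5 CPM with miR-497, a 4.16-fold ratio with every miR-497 library far above the NC values. Oplah, the 5-oxoprolinase of the glutathione cycle, went from a mean of 3.317 to 9.42 CPM, and Haghl, related to the glyoxalase that hydrolyses lactoylglutathione, from a mean of 2.04 to 5.32 CPM. Ptges, the prostaglandin E synthase that completes prostaglandin E2 production, measured 2.396, 2.32 and 2.84 CPM with NC and 10.1, 6.22 and 7.21 CPM with miR-497. Its first miR-497 library stood above the other two.

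The remaining enzymes were Nagk, the kinase that salvages N-acetylglucosamine (from a mean of 15.9 to 52.04 CPM), Acyp1, an acylphosphatase (from a mean of 1.995 to 5.74 CPM), Mthfsl, a relative of methenyltetrahydrofolate synthetase (from a mean of 0.968 to 3.45 CPM), Ddc, the decarboxylase that makes dopamine and serotonin (from a mean of 1.32 to 3.52 CPM), and Nme2, a nucleoside diphosphate kinase (from a mean of 7.92 to 23.3 CPM). Nme2 shares 48.9% of its exon bases with Gm20390 on the same strand, so its reads could belong to either, and it has close paralogs. Of Haghl's exon bases, 20.6% lie under exons on the opposite strand, and the sources used here do not give the strand setting of the counting. A list of 128 glutathione, NADPH and xenobiotic enzymes had 30.5% called higher and 18.8% lower, and Fmo1 was the selected gene in it. Among 195 genes of lipid, prostaglandin and retinoid metabolism, 23.1% were called higher and 30.8% lower, with Smpdl3a and Ptges selected. Over all tested genes these shares were 23.8% and 26.0%, near those of the lipid list.

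The 12 genes grouped as secreted and matrix proteins had ratios from 2.52 to 11.9, and most act outside the cell or along the secretory route. Timp2, at chr11:118301069-118355740, encodes an inhibitor of matrix metalloproteases that also takes part in activating one of them. Timp2 measured 136, 138 and 136 CPM with NC and 409, 365 and 357 CPM with miR-497. The NC libraries were nearly equal, and miR-497 library 1 was the highest. Ecm1, an extracellular glycoprotein that binds matrix components, measured 63.03, 70.2 and 58.8 CPM with NC and 174, 174 and 186 CPM with miR-497. Per kilobase of exon, the miR-497 means were 96.8 CPM for Timp2 and 70.6 CPM for Ecm1.

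Cxcl12, at chr6:117168535-117181367, encodes a chemokine that directs migration of blood and endothelial cells through the receptor Cxcr4. Cxcl12 measured 67.4, 77.6 and 71.6 CPM with NC and 224, 215 and 231 CPM with miR-497, with the miR-497 values close together and a 3.09-fold ratio. Rnase4, a secreted ribonuclease, measured 10.8, 8.77 and 8.66 CPM with NC and 41.97, 38.9 and 49.2 CPM with miR-497. The third library was its highest, and 13.4% of its exon bases are shared with Ang, which lies on the same strand and is transcribed with it. Edil3, an integrin-binding matrix protein first described in endothelium, measured 8.29, 8.52 and 8.62 CPM with NC and 23.4, 26.8 and 23.9 CPM with miR-497.

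The group also held proteases and matrix-processing genes. Prss35, a serine protease-like protein, had a ratio of 11.9-fold, from 0.43, 0.221 and 0.456 CPM with NC and 3.45, 4.61 and 5.08 CPM with miR-497. That ratio has a small denominator, with all NC libraries under 0.5 CPM. Fam20a, a pseudokinase that activates the secretory-pathway kinase Fam20c, measured 1.17, 0.996 and 0.386 CPM with NC and 2.99, 3.42 and 4.64 CPM with miR-497. Ltbp2, a fibrillin-binding protein of elastic matrix, measured 12.4, 12.7 and 9.57 CPM with NC and 35.03, 28.98 and 25.6 CPM with miR-497, highest in library 1. Adamts13, which cleaves von Willebrand factor, was uneven in both groups, at 6.97, 3.84 and 9.39 CPM with NC and 25.6, 12.7 and 13.7 CPM with miR-497. Without NC replicate 2 or miR-497 replicate 1 it no longer met the conditions. Bmper, a secreted modulator of BMP signalling in endothelium, went from a mean of 1.46 to 4.89 CPM. Colgalt2, which adds galactose to collagen hydroxylysine, went from a mean of 8.56 to 24.3 CPM, and Serpinb1a, an inhibitor of neutrophil proteases, from a mean of 2.23 to 5.63 CPM.

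Matrix genes as a class were called in both directions. Of 94 extracellular matrix and matricellular genes, 28 were called higher (29.8%) and 26 lower (27.7%), with Edil3, Ecm1 and Ltbp2 selected. Among 111 matrix proteases and inhibitors, 31 were called higher (27.9%) and 24 lower (21.6%), with Prss35, Ctsk, Timp2, Adamts13 and Serpinb1a selected. Of 155 secreted growth factors and cytokines, 33 were called higher (21.3%) and 47 lower (30.3%). Beside the background of 23.8% and 26.0%, those shares are near the level of all genes.

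The 14 genes of adhesion and the cytoskeleton had ratios from 2.68 to 5.81. Tns3, at chr11:8431652-8664535, encodes a tensin, an adaptor that ties integrin tails to actin at focal and fibrillar adhesions. Tns3 measured 113, 108 and 112 CPM with NC and 341, 339.7 and 366 CPM with miR-497. Sh3pxd2b, also called Tks4, is a scaffold of podosomes and invadopodia, the protrusions that degrade matrix, and measured 68.1, 63.9 and 67.7 CPM with NC and 230.3, 224 and 229 CPM with miR-497. Both genes had tight replicates, and the groups lay far apart. Itga9, the integrin subunit that binds tenascin and Adam-family ligands, measured 18.5, 15.1 and 12.5 CPM with NC and 41.2, 43.6 and 50.7 CPM with miR-497. Myl9, a regulatory light chain of non-muscle and smooth muscle myosin, measured 1.81, 2.46 and 1.93 CPM with NC and 5.43, 5.38 and 6.78 CPM with miR-497.

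Adhesion molecules of the cell surface were also present. Tspan7, a tetraspanin, measured 3.41, 3.93 and 4.63 CPM with NC and 16.6, 13.9 and 17.3 CPM with miR-497, a 4-fold ratio. Cdh6, a classical cadherin, measured 1.597, 1.74 and 1.65 CPM with NC and 4.73, 6.04 and 4.58 CPM with miR-497. Opcml, a lipid-anchored adhesion molecule of the immunoglobulin family, measured 0.123, 0.691 and 1.47 CPM with NC and 5.66, 1.65 and 5.71 CPM with miR-497. Its second miR-497 library was close to its highest NC library, so the 5.70-fold ratio of means hides a narrow separation. Without NC replicate 3 that ratio was 10.7-fold. Megf10, an engulfment receptor, went from a mean of 13.7 to 40.1 CPM.

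Genes named for neurons and sensory cells were part of the same group. Nefm, the medium neurofilament subunit, measured 6.63, 9.32 and 7.92 CPM with NC and 26.5, 22.7 and 25.3 CPM with miR-497. Map6, which stabilises microtubules against cold, measured 7.92, 8.21 and 8.41 CPM with NC and 24.3, 24.2 and 23.9 CPM with miR-497, with values that hardly varied within a group. Rp1, a microtubule protein of photoreceptors, measured 0.154, 0.996 and 0.526 CPM with NC and 3.22, 3.299 and 3.21 CPM with miR-497. Its NC values ranged over several fold at less than 1 CPM, and its 5.81-fold ratio is imprecise for that reason. Without NC replicate 2 it was 9.54-fold. Sybu, an adaptor between syntaxin cargo and kinesin, went from a mean of 1.39 to 3.71 CPM. Nckap5, a little-studied protein named for the adaptor Nck, went from a mean of 2.94 to 8.11 CPM, and Nrap, which anchors myofibrils at muscle cell junctions, from a mean of 1.71 to 4.63 CPM.

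Among 122 neuronal, synaptic and vesicle genes, 37 were called higher (30.3%) and 22 lower (18.03%), with Nefm, Map6 and Ndrg4 selected. Summed neuronal cell markers were low in all libraries but higher with miR-497, as given above, and their part in these levels was not tested. For cadherins, protocadherins and adhesion receptors, 28.1% of 135 were called higher and 25.2% lower. For actin, myosin and muscle structure, the shares were 22.6% and 23.4% of 124. Axon guidance and Eph genes had 34.4% of 64 called higher and 25% lower, and no selected gene. Over all tested genes the shares were 23.8% and 26.0%.

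The 7 immune and cell-surface proteins had ratios from 2.71 to 10.4, with a median of 4.55. The ratio chose the genes, and 4 of the 7 had an NC mean under 3 CPM, so the role groups are not ranked by it. Havcr2, at chr11:46454935-46481255, encodes TIM-3, an inhibitory receptor best known on T cells and myeloid cells. Havcr2 measured 0.676, 0.387 and 0.386 CPM with NC and 5.16, 4.92 and 5.01 CPM with miR-497. The miR-497 libraries differed little, and the 10.4-fold ratio again has a small denominator. Cd24a, a heavily glycosylated lipid-anchored protein that binds selectins and Siglecs, measured 4.82, 4.12 and 4.94 CPM with NC and 23.04, 25.1 and 20.9 CPM with miR-497. Cd300lg, also called nepmucin and found on endothelium of capillaries and venules, measured 2.49, 3.595 and 2.84 CPM with NC and 11.9, 11.5 and 12.1 CPM with miR-497. The 3 miR-497 values of Cd300lg lay within 1 CPM of each other.

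Colec12, a scavenger receptor with a collagen-like stem and a lectin domain, measured 52.4, 48.5 and 45.2 CPM with NC and 156, 156 and 176 CPM with miR-497. Tnfrsf1b, the TNF receptor of endothelial and immune cells without a death domain, measured 25.6, 28.04 and 25.5 CPM with NC and 73.7, 71.6 and 69.1 CPM with miR-497. Both were well above 20 CPM with the NC mimic already, and their groups lay far apart. Psg22, a pregnancy-specific glycoprotein of placental trophoblast, measured 1.87, 0.913 and 1.05 CPM with NC and 7.76, 8.404 and 9.75 CPM with miR-497. It is 1 of a family of near-identical genes, so reads could have been divided among copies. Ly6g6d, a lipid-anchored Ly6 protein, measured 1.11, 0.996 and 0.701 CPM with NC and 5.198, 2.71 and 4.84 CPM with miR-497, with miR-497 library 2 below the other two. In the list of 117 complement, coagulation and surface immune proteins, 45 were called higher (38.5%) and 25 lower (21.4%). The 2 most clearly called lower were the interferon-induced Gbp7 and Gbp3, so the list moved both ways. Of the macrophage markers given above, Cd68 was called higher, and Ptprc, Csf1r, Adgre1 and Lyz2 were at or under 1.06 CPM on average in both groups.

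**Figure D3:**
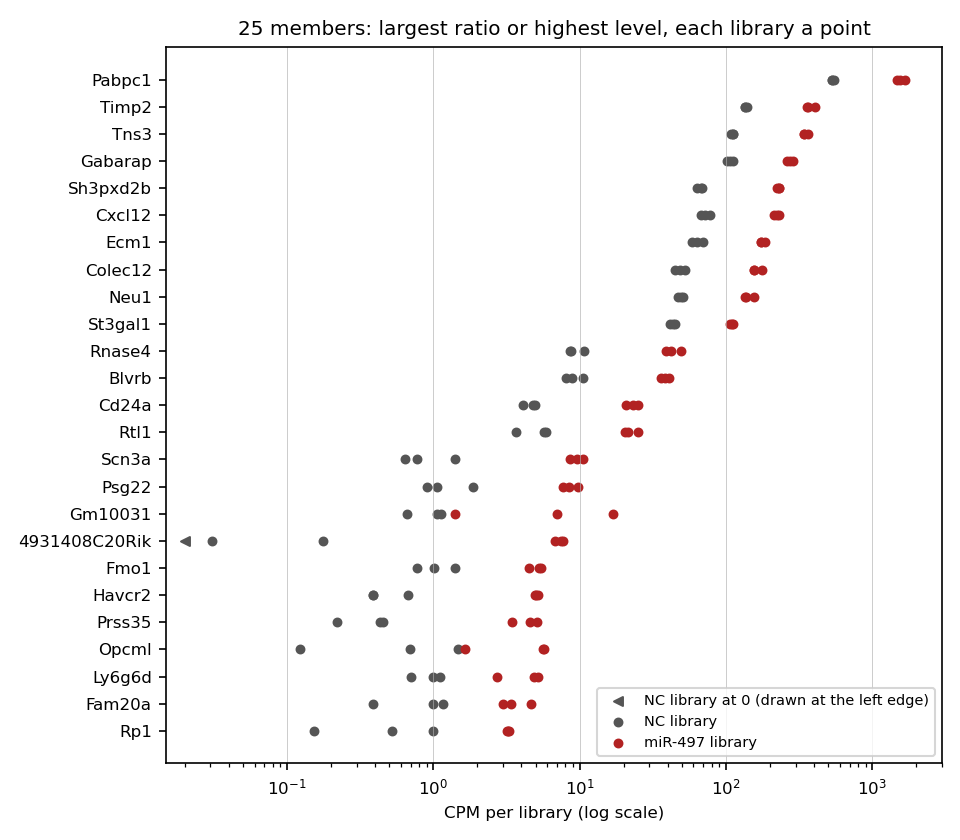
CPM in each library (x axis, log scale) for the 25 genes of largest ratio or highest CPM, with grey points for the 3 NC libraries and red points for the 3 miR-497 libraries. Genes at the top such as Pabpc1 and Timp2 have tight groups, while Gm10031 and Opcml have 1 miR-497 point close to the grey ones; the NC library of 4931408C20Rik without counts is drawn at the left edge.

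The 16 genes of channels, transport and signalling had ratios from 2.52 to 10.2. Scn3a, at chr2:65457118-65567627, encodes a pore-forming subunit of a voltage-gated sodium channel that is prominent in the developing brain. Scn3a measured 0.768, 0.636 and 1.402 CPM with NC and 8.54, 9.62 and 10.5 CPM with miR-497. All miR-497 libraries were above 8 CPM, and the 10.2-fold ratio was the largest of the group. Kcnh6, a voltage-gated potassium channel of the ether-a-go-go family, measured 5.53, 4.56 and 4.91 CPM with NC and 13.8, 13.1 and 15.1 CPM with miR-497. Slco4a1, an organic anion transporter that carries thyroid hormone, measured 41.9, 39.5 and 35.6 CPM with NC and 97.9, 94.2 and 118 CPM with miR-497, highest in library 3.

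Ubiquitin ligases and a signalling adaptor came next. Peli2, a Pellino ubiquitin ligase of Toll-like receptor signalling, went from a mean of 7.45 to 19.4 CPM. Dtx4, a Deltex ubiquitin ligase of Notch signalling, went from a mean of 1.06 to 4.16 CPM, Rnf182, a RING-finger ubiquitin ligase, from a mean of 1.002 to 3.09 CPM, and Neurl2, a neuralized-family protein, from a mean of 2.06 to 5.19 CPM. Shc2, an adaptor of receptor tyrosine kinases, went from a mean of 1.33 to 4.37 CPM. Without NC replicate 3 the ratio of Dtx4 was 6.65-fold in place of 3.92-fold. None of these 5 reached a mean of 20 CPM with miR-497. Il17rd, a receptor relative that dampens FGF signalling, measured 2.03, 1.72 and 1.96 CPM with NC and 4.42, 4.54 and 6.01 CPM with miR-497. Pde9a, which hydrolyses cyclic GMP, measured 2.73, 1.44 and 1.37 CPM with NC and 4.58, 4.36 and 5.01 CPM with miR-497, with NC library 1 above the other two.

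S100a4, a calcium-binding protein associated with cell motility and metastasis, went from 17.9 ± 2.25 to 49.5 ± 6.26 CPM, but 51.7% of its exon bases are shared with Gm42674 on the same strand. Opn3, an opsin expressed outside the eye, went from a mean of 1.71 to 4.74 CPM and shares 24.1% with Chml. Ndrg4, named for its relation to Ndrg1, measured 6.79, 4.84 and 5.71 CPM with NC and 12.6, 13.7 and 17.4 CPM with miR-497, highest in miR-497 library 3. All 3 were under 20 CPM on average with NC. Tmeff1, a transmembrane protein with follistatin domains, went from a mean of 2.92 to 8.55 CPM. Rundc3a, a RUN-domain protein of nervous and endocrine cells, went from a mean of 21 to 70.8 CPM, and Ctxn1, a small neuronal membrane protein, from a mean of 9.32 to 31.4 CPM. Of Neurl2's exon bases, 32.0% lie under exons on the opposite strand. Among 168 ion channel genes, 22.0% were called higher and 23.2% lower, and among 330 solute carriers, pumps, aquaporins and ABC transporters, 20.9% and 30.0%, beside 23.8% and 26.0% for all genes.

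The 10 genes of transcription and RNA had ratios from 2.52 to 4.06. Pabpc1, at chr15:36595661-36609668, encodes the main cytoplasmic poly(A)-binding protein, which coats poly(A) tails and promotes translation. Pabpc1 measured 529.8, 551 and 532 CPM with NC and 1671, 1557 and 1480 CPM with miR-497, and had the highest level per length of all 96 genes, 239.9 CPM per kilobase of exon with miR-497. Without it, the summed level of the other 95 was 1403, 1393 and 1330 CPM with NC and 4120, 3937 and 4243 CPM with miR-497. Pabpc1 has processed pseudogenes, and how reads matching several places were counted is not given in the sources used here.

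Transcription factors among the 96 came from several families. Thrb, thyroid hormone receptor β, measured 2.73, 2.38 and 1.33 CPM with NC and 7.33, 8.22 and 8.22 CPM with miR-497, a 3.69-fold ratio. Eomes, a T-box factor of mesoderm and lymphocyte differentiation, went from 2.01 ± 0.481 to 8.17 ± 1.62 CPM. Klf9, a Krüppel-like factor induced by steroid and thyroid hormones, went from 22.3 ± 0.5504 to 58.9 ± 1.17 CPM, with libraries within a few CPM of each other in each group. Zfp239, a zinc finger protein, measured 4.39, 4.81 and 3.65 CPM with NC and 17.2, 13.8 and 15.97 CPM with miR-497. Creb3l4, a membrane-bound leucine zipper factor, measured 0.921, 1.05 and 1.23 CPM with NC and 3.802, 3.08 and 2.77 CPM with miR-497.

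Arnt2, a basic helix-loop-helix partner of PAS-domain factors, went from a mean of 2.11 to 5.297 CPM. Greb1, an oestrogen-responsive cofactor, went from a mean of 1.57 to 5.13 CPM, and Hcfc1r1, a regulator of the host cell factor Hcfc1, from a mean of 6.55 to 17.9 CPM. Of the exon bases of Hcfc1r1, 30.0% lie under exons on the opposite strand. In the list of 738 sequence-specific transcription factors, 6 of them selected, 24.5% were called higher and 22.1% lower, close to 23.8% and 26.0% over all genes.

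The other 14 genes included the one with the largest ratio. 4931408C20Rik, a gene with no described function at chr1:26681814-26687460, had 1, 0 and 5 counts in the NC libraries and 191, 219 and 230 counts in the miR-497 libraries. Pooled over libraries its level was 118-fold higher with miR-497, with a 95% exact counting interval from 54.0 to 323 that covers counting error only. In CPM, 4931408C20Rik measured 0.0307, 0 and 0.175 CPM with NC and 7.41, 6.82 and 7.68 CPM with miR-497. Without NC replicate 3, which held 5 of its 6 NC counts, its log2 ratio of means was 8.89 in place of 6.73. Gm10031, a predicted gene, measured 1.14, 0.664 and 1.05 CPM with NC and 7.02, 1.401 and 16.8 CPM with miR-497. Its miR-497 libraries spread widely, and its second was just above the NC values. Its ratio of 8.86-fold was 4.43-fold without miR-497 replicate 3.

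Rtl1, a retrotransposon-derived imprinted gene needed for placental capillaries, measured 3.65, 5.92 and 5.68 CPM with NC and 21.3, 25.3 and 20.5 CPM with miR-497. St3gal1, a sialyltransferase that caps O-linked glycans, measured 43.4, 45.02 and 41.5 CPM with NC and 111, 109 and 106 CPM with miR-497, with tight groups and a ratio at the limit. Sialic acid is removed by Neu1 and added by St3gal1, and both transcripts were higher.

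Tmem50a, a small membrane protein, went from 30.1 ± 1.06 to 90.8 ± 5.64 CPM. Tcp11l1 went from a mean of 32.6 to 86 CPM, Etl4 from a mean of 14.8 to 42.1 CPM, and Tmem131l, a Tmem131 relative, from a mean of 13.7 to 35.9 CPM. Tcp11l1 carried 3 matches to the 5p seed in its 3′ UTR, and Etl4 carried 2 to the 3p seed. The Tcp11l1 matches at UTR positions 3250 and 3253 overlap, so they are not separate sites. Dnase1l1, a deoxyribonuclease relative, went from a mean of 3.595 to 9.54 CPM, and Tmem231, a protein of the ciliary transition zone, from a mean of 1.68 to 5.52 CPM. Ydjc went from a mean of 3.44 to 10.1 CPM, with 35.2% of its exon bases under opposite-strand exons. Ccdc30, a coiled-coil protein, went from a mean of 1.29 to 3.46 CPM, and 4930578C19Rik from a mean of 3.08 to 7.95 CPM. Little is described of most of these genes.

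Relatives and partners of 11 of the genes, picked after values had been seen, set families and complexes side by side. Of 15 such relatives, 8 were called higher and 4 lower by edgeR, where 23.8% and 26.0% of all tested genes were, and none was itself selected. Hadhb was 3.82-fold higher, while Hadha, the α subunit of the same enzyme complex, was at 150 ± 5.53 CPM with NC and 143 ± 4.79 CPM with miR-497, a log2 fold change of -0.05 ± 0.05 (adjusted p = 0.42, edgeR). The difference between the 2 subunits was not tested. Pabpc4, a second cytoplasmic poly(A)-binding protein, was called lower at -0.69 ± 0.07 (adjusted p = 4.9e-07, edgeR), opposite to Pabpc1. Thra, the other thyroid hormone receptor, was called lower at -0.26 ± 0.07 (adjusted p = 0.0078, edgeR), opposite to Thrb.

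For Scn3a, the accessory subunit gene Scn3b was called higher at 1.19 ± 0.13 (adjusted p = 1e-06, edgeR). Cxcr4, the signalling receptor for Cxcl12, was called higher at 0.99 ± 0.06, from 54.5 to 107 CPM, and Ackr3, its scavenging receptor, lower at -0.34 ± 0.08 (adjusted p = 1e-09 and 0.0028, edgeR). Smpdl3b fell by 0.58 on the log2 scale (adjusted p = 2e-05, edgeR), opposite to Smpdl3a. In the autophagy family, Gabarapl1 was called higher at 0.69 ± 0.06 and Gabarapl2 at 0.31 ± 0.07. Ctsa, the partner of Neu1, was called higher at 0.68 ± 0.05, while the plasma membrane sialidase Neu3, at -0.20 ± 0.16, did not pass the test (adjusted p = 0.34, edgeR). Sh3pxd2a, the other podosome scaffold of its family, was called higher at 0.84 ± 0.05 and Tns1 at 0.58 ± 0.05, and Tns2, at 0.03 ± 0.06, did not pass the test. Tnfrsf1a, the other TNF receptor, was called higher at 0.21.

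**Figure D4:**
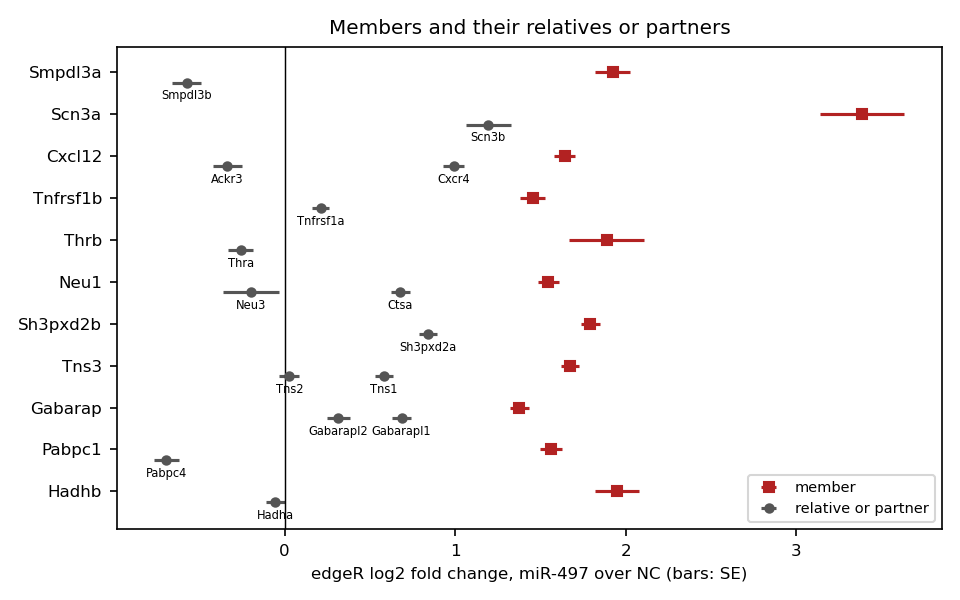
edgeR log2 fold change of miR-497 over NC (x axis, bars give the SE) for 11 of the genes (red squares) and 15 relatives or partners (grey circles), 1 row for each selected gene. Red squares lie to the right by choice, and the grey circles lie on both sides of 0, from Pabpc4 at -0.69 to Scn3b at 1.19.

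Sites for the seeds of the 2 strands were counted in the longest annotated 3′ UTR of each gene, a property that the choice of genes did not use. A 7mer-m8 site matches bases 2 to 8 (TGCTGCT for the 5p strand, GTGGTTT for the 3p strand), a 7mer-A1 site matches bases 2 to 7 followed by A (GCTGCTA and TGGTTTA), and an 8mer has both. For the 5p strand, 22 of the 96 genes (22.9%) had at least 1 site, beside 3616 of 12852 tested protein-coding genes (28.1%). Among genes called lower it was 1480 of 3653 (40.5%), and among the other genes called higher 636 of 3175 (20.03%). None of the 96 had an 8mer, beside 4.61% of tested protein-coding genes and 8.10% of those called lower. Sites per kilobase of 3′ UTR were 0.172 in the 96, 0.254 in all tested, 0.385 in those called lower and 0.161 in the others called higher.

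For the 3p strand, 19 of the 96 (19.8%) had a site, beside 24.0% of tested protein-coding genes, 24.97% of those called lower and 24.5% of the others called higher. An 8mer stood in 1 gene, Rab27b (1.04%), beside 3.16% of all tested. In all, 62 of the 96 had neither site and 7 had both. The UTRs were of similar length and composition. Their median length was 1213 bases in the 96 and 1188 in all tested, with a GC content of 45.2% and 44.5%. In the shortest annotated 3′ UTR the 5p share was 11.5% of the 96 and 16.6% of all tested, and the 3p share 12.5% and 13.9%.

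**Figure D5:**
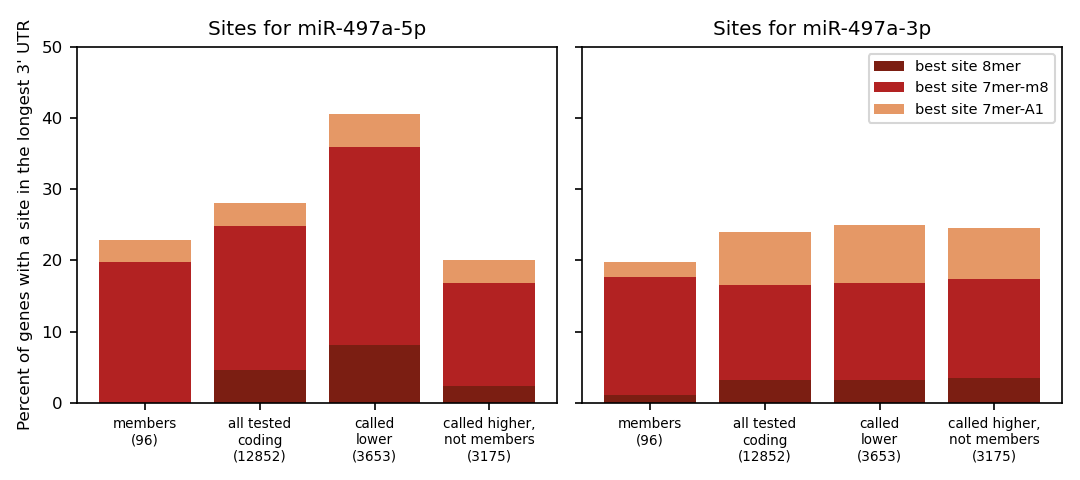
Percent of genes whose longest 3′ UTR holds a seed site (y axis) for the 5p strand (left) and the 3p strand (right), divided by best kind of site, in the 96 genes, all tested protein-coding genes, those called lower and the other genes called higher (numbers of genes in brackets). For the 5p strand the bar of the 96 reaches 22.9% with no 8mer part, and that of genes called lower reaches 40.5%; for the 3p strand the bars lie between 19.8% and 24.97%.

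The 22 transcripts with a 5p site were higher in the miR-497 libraries by choice. Some of the sites are printed, with the seed match in capitals and 10 bases on each side, 5′ to 3′ on the transcript strand of GENCODE M21, to show matches in transcripts that were not lower. Peli2 had 3 of them at UTR positions 816, 1656 and 2827 of 4306, Cxcl12 had 2 at 2051 and 4509 of 5188, Sh3pxd2b had 2 at 1242 and 2249 of 4612, and Scn3a, Thrb, Neu1 and Hadhb had 1 each.
Peli2 site 1: cgggggctggTGCTGCTgcagttggca
Peli2 site 2: tctgtagcgcTGCTGCTcagtttgatt
Peli2 site 3: taataaacggTGCTGCTgggtcatgca
Cxcl12 site 1: actgggcaccTGCTGCTgttagggcca
Cxcl12 site 2: gtttatacacTGCTGCTggctcccgag
Sh3pxd2b site 1: cagcagcagcTGCTGCTccgtgtagaa
Sh3pxd2b site 2: cctatccttgTGCTGCTgtgaactgta
Scn3a: gacaagaggtTGCTGCTtccattacca
Thrb: gcatgggctgTGCTGCTgatggagatg
Neu1: ccatcctggcTGCTGCTgtttgcaagt
Hadhb: gagactaatgGCTGCTAgccacttgga

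All but the Hadhb match are of the 7mer-m8 kind, and the Hadhb match is a 7mer-A1. The Neu1 and Scn3a matches lie inside UTRs of 1090 and 3439 bases, at positions 619 and 245. Prss35 and Sh3pxd2b were among the genes with 2 matches to the 3p seed. Which 3′ UTR these cells use was not measured, and a match is a description and not a shown contact.

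Promoter sequences, 250 bases before to 50 after the start, were on hand in RefSeq (GRCm38.p6) for 66 of the 96 genes, some with several starts. Words were searched on both strands, and a gene counts when any of its promoters holds the word. The AP-1 word of Fos and Jun dimers is TGACTCA or TGAGTCA, and it was searched in the looser form TGANTCA, with any middle base. TGANTCA stood in 10 of the 66 genes (15.2%), beside 6.42% of 10147 tested protein-coding genes with a promoter. Counted per promoter, it stood in 7.81% of all 32851. The 10 were Ccdc30, Ddc, Ecm1, Gpnmb, Havcr2, Itga9, Klf9, Neu1, Tmem231 and Zfp239. In Ccdc30, Ddc, Havcr2 and Klf9 the middle base was A or T, and the shares were not counted for the stricter word. TGACGTCA, the cyclic AMP response element, stood in none of the 66 genes, beside 3.53% of the tested genes. The E-box CACGTG stood in 9.09% and 11.6%, the GC box GGGCGG in 69.7% and 67.8%, and TATAAA in 12.1% and 9.08%. None of these words contains another, and binding was not measured.

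The promoters of Neu1, Gpnmb and Ecm1 are shown because these genes had the highest miR-497 levels per kilobase of exon among the 10 (38.1, 14.7 and 70.6 CPM), with the searched words in capitals. In Neu1 (chr17:34931003-34931302, plus strand) the capitals mark an AP-1 word and then a GC box on the opposite strand. In Gpnmb (chr6:49036268-49036567, plus strand) they mark an AP-1 word close to the start. In Ecm1 (chr3:95739520-95739819, minus strand) they mark an AP-1 word, a GC box and a TATA box in that order.
Neu1 promoter: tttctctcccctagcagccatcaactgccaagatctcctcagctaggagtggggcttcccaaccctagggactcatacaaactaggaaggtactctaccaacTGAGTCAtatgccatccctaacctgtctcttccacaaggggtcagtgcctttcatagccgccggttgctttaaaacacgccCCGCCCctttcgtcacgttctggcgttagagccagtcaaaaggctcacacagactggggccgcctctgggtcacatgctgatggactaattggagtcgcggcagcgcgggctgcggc
Gpnmb promoter: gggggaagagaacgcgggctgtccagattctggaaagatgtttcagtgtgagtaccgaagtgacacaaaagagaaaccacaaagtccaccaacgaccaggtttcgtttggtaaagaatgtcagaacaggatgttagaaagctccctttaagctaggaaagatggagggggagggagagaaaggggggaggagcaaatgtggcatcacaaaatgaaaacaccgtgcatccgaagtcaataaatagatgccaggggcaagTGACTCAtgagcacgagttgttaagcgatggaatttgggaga
Ecm1 promoter: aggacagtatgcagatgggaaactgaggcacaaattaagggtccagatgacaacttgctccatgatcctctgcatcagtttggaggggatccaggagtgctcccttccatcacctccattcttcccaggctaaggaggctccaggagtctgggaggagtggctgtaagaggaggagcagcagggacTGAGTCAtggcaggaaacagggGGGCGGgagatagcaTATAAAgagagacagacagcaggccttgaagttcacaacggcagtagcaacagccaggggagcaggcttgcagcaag

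The 96 genes were spread over chromosomes 1 to 19 and X, with 11 on chromosome 11 and 9 on chromosome 2. On the genome, 7 pairs lay within 1000000 bases of each other. The closest were Eomes and Itga9 at 120558 bases apart, Neu1 and Ly6g6d at 135490, and Ctsk and Ecm1 at 224785. Chromosome and pair counts were not set beside those of all tested genes, so they describe position only. Exons of the 96 genes added up to a median of 4764 bases, beside 4527 over the tested protein-coding genes. By function, 44 of the 96 fell in at least 1 of the 21 lists compiled by symbol and 52 in none. Apart from the lysosomal and surface immune lists, the lists held shares of genes called higher between 19.4% and 34.4%, on both sides of the 23.8% over all genes.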

How the data were processed

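ADC106 libraries after NC or miR-497 mimic transfection (3 each) were grouped, with their replicate numbers, by sample title. The deposited file holds raw counts of reads per gene that the authors had not normalized. Per the submitters' processing notes, STAR 2.5.4b, featureCounts, Subread 1.6.1, edgeR 3.32.1 and the build GRCm38 were used, while the annotation release, the strand setting and the handling of reads matching several places are not given in the sources used here. GENCODE M21 (GRCm38) supplied symbols for 55141 of 55401 identifiers, biotypes, coordinates and 3′ UTRs, and RefSeq supplied microRNAs and promoters.

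CPM was computed from column totals with no pseudocount, with pandas 2.3.3 and numpy 2.4.6 in Python 3.11.15. edgeR 4.0.16 in R 4.3.3 (TMM, filterByExpr with minima of 10 for the count and 15 for the total, quasi-likelihood F-test on the group, 2-sided, Benjamini-Hochberg over 14661 genes, threshold 0.05) gave calls and was tested on simulated data. An adjusted p in the text is from that fit. Library totals ranged from 25777676 to 36159499 counts.

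The genes, the 21 lists (made by symbol patterns, a gene may be in several), the role groups and the relatives were all chosen with earlier results of these data known, and the role groups and relatives after the values were seen. The text gives values in every library for the 15 genes of largest ratio, the 10 of highest level with miR-497 and up to 3 of largest ratio in each list, 49 in all. The alternatives were DESeq2 1.42.0 (its size factors and its Wald test), no filter, a replicate block, other limits for the choice of genes, other UTRs and sites, and leaving out each library. A few genes of the table, 2 of the 96 among them, are not reported here by name, though they enter every count over the 96, the lists and all tested genes. Relatives not reported by name were left out of the relatives counted.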

Additional observations from a re-analysis of the deposited data

How the results depend on the processing

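The number of genes chosen was 96 with column totals, 97 with TMM-scaled library sizes and 104 with DESeq2 size factors, and all 96 were among both of the last. Limits of 1 and 10 CPM in place of 3 gave 166 and 53 genes, ratios of 2 and 4 in place of 2.5 gave 240 and 17, and dropping the requirement on single libraries gave 96. Leaving out 1 library at a time gave 93 to 112 genes, of which 84 to 95 were among the 96. The share with a 5p site was 11.5% in the shortest 3′ UTR and 0% for 8mer sites alone, and 20.4% to 23.7% with each library left out. The share with a 3p site was 1.04% for 8mer sites alone and 18.5% to 22.6% with each library left out. Genes called higher numbered 3029 to 3350, and lower 3374 to 3608, with each library left out.

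Equal replicate numbers did not pair the libraries, since their deviations correlated at -0.12, -0.04 and -0.13. With a replicate block, 3177 genes were called higher and 3563 lower, and with the DESeq2 Wald test 3602 and 3602. All 96 genes were called higher in both, which follows from the choice, and nothing is read from it. Over the lists, 415 of 420 counts under an alternative were within 1.5 times the main count, and the other 5 belonged to the pregnancy-specific list of 5 genes. Of 392 ratios of the 49 genes given by library, 391 moved by less than the spread between libraries. The exception was 4931408C20Rik, at a log2 ratio of 8.89 without NC replicate 3. That spread came from the same libraries, so leaving 1 of them out could hardly exceed it, and nothing is read from this count. Among all 96, leaving out 1 library moved the ratio by over 1.5 times in 5 genes, namely 4931408C20Rik, Dtx4 (3.92 to 6.65) and Opcml (5.70 to 10.7) without NC replicate 3, Rp1 (5.81 to 9.54) without NC replicate 2 and Gm10031 (8.86 to 4.43) without miR-497 replicate 3, and the spread between libraries was wide in these genes. Depth limits the 41 genes with an NC mean under 3 CPM, whose ratios have small denominators.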
